A study of Homo sapiens with 6 samples.

Results

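Fibroblast growth factors (FGFs) and their receptors were examined as 10 genes of the 16907 in the files, matched by symbol. They comprised 5 ligands, FGF1, FGF2, FGF5, FGF7 and FGF18, and 5 receptors, FGFR1, FGFR2, FGFR3, FGFR4 and FGFRL1. The set was chosen by measured values, namely the expression differences of this same comparison, which were known when the set was proposed. The values of these genes are therefore given as a description without p-values. RNA was sequenced from LX-2 cells, a line derived from human hepatic stellate cells, in a siControl and a siOGT group of 3 libraries each. Cells of both groups grew in medium with serum and received 20 nM of small interfering RNA for 72 h, in 3 biological replicates whose numbers pair the groups. OGT encodes the enzyme that adds O-linked N-acetylglucosamine to nuclear and cytosolic proteins. Per the study's methods, control and target siRNAs came from Ambion and Horizon Discovery, respectively. This can be read as separate suppliers for siControl and siOGT. siOGT was compared with this siControl alone, so the effects of the silenced target and of the siRNA design cannot be told apart. All libraries come from 1 cell line.

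FGFs are secreted ligands that bind heparan sulfate on the cell surface and, together with it, bring 2 receptor tyrosine kinases into contact. FGFR1 to FGFR4 are such kinases, whereas FGFRL1 binds ligand but lacks the kinase domain. The docking protein FRS2 then links the receptors to the RAS-ERK cascade, which switches on transcription factors of the ETV group and feedback inhibitors of the Sprouty and DUSP families. In liver, FGF ligands and receptors are known for roles in repair and in the growth of stellate cells, and FGFR4 for its part in bile acid control in hepatocytes.

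Libraries held between 25996770 and 27966801 expected counts, the read counts per gene estimated by RSEM. OGT had 4737, 3489 and 3383 counts in siControl and 1079, 726 and 782 in siOGT, which gave 145 ± 28.9 and 32.0 ± 6.94 CPM, counts scaled to a common library size (SD, n = 3 each). The log2 fold change of siOGT against siControl, abbreviated log2 FC, was -2.18 (SE 0.073, edgeR adjusted p-value 2.71e-12). The label of the cell line was checked against marker genes. The 9 stellate cell and myofibroblast markers summed to 3272 to 4701 CPM in siControl and 2698 to 3846 CPM in siOGT, mostly collagen. Of the 8 tested, 1 was called higher and 4 lower, beside 12.7% of all genes tested in each direction (edgeR adjusted p-value of at most 0.05). The contractile marker ACTA2 was at 6.55 ± 2.72 CPM in siControl, DES had no more than 6 counts in any library, and LRAT, a marker of retinoid storage, no more than 1. Hepatocyte markers summed to at most 4.52 CPM, with ALB at 3 counts or fewer, endothelial markers to at most 7.86 and epithelial markers to at most 8.38. Leukocyte markers summed to 131 to 162 CPM in siControl and 176 to 208 CPM in siOGT, nearly all of it CD68, a lysosomal gene, while PTPRC, the pan-leukocyte gene, stayed at 23 counts or fewer. The part of these shifts in the FGF results was not tested. In such bulk RNA, fewer cells of a type and less RNA per cell cannot be told apart.

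In 3 of the FGF genes, the siOGT and siControl libraries did not overlap. The other 6 genes with enough reads had log2 FCs between -0.20 and 0.15. The ligands FGF1 and FGF18 were higher after OGT silencing, at 176% and 272% of siControl by the fitted fold change. The receptor FGFR3 was lower, at 37.4%. FGF18 rested on 15 to 61 counts per library, and FGFR3 on 28 to 127. The genes of each kind with the highest CPM, FGF2 and FGFR1, differed little. Of the 10 genes, 9 had enough reads to be tested, and FGFR2 did not. A gene is called where the edgeR adjusted p-value, taken over all 14853 genes tested, was at most 0.05. By this measure 3 of the 9 FGF genes were called, beside 25.4% of all genes tested, and 2 of the 9 were called with a difference of at least 2-fold, beside 1.08% of all. The ranges of both groups did not overlap for 3 of the 9, beside 23.9% of all. In 2 of these the siOGT libraries were above (12.1% of all genes) and in 1 below (11.8%). Since the genes were proposed from this comparison, nothing is read from these counts. The median log2 FC was 0.035 over the 9 FGF genes and 0.0068 over all genes tested.

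**Figure D1:**
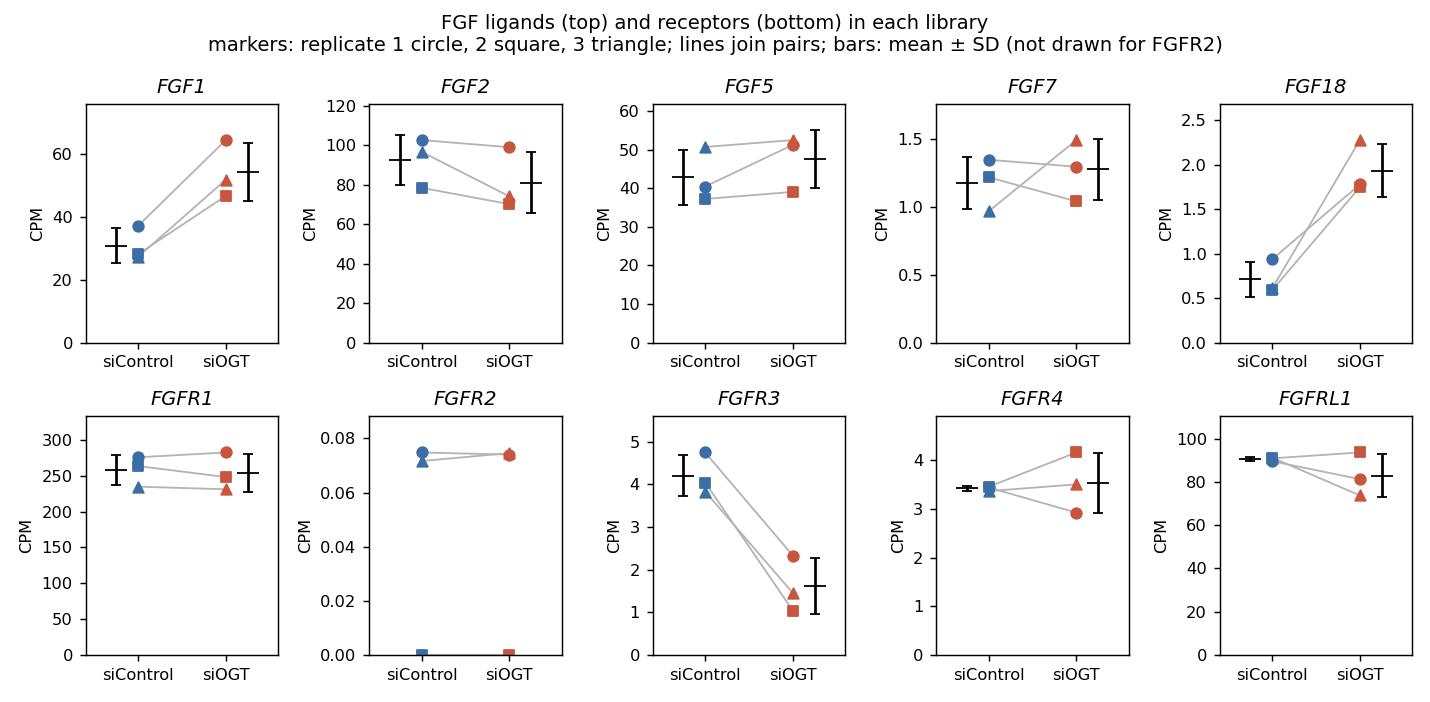
CPM (y axis, linear from 0) of the 5 FGF ligands (top) and the 5 receptors (bottom) in each of the 6 libraries, with lines joining siControl and siOGT of the same replicate and bars giving mean ± SD of 3 libraries (not drawn for FGFR2, which had 0 to 2 counts). The groups are separate for FGF1, FGF18 and FGFR3 and overlap for the other 7 genes.

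FGF18 and FGFR3 were the FGF genes with differences of at least 2-fold, and the 250 bases before their RefSeq start sites (GRCh38.p14) are shown for this reason, read on the strand of the gene. The FGF18 stretch lies at chr5:171419397-171419646 and that of FGFR3 at chr4:1793043-1793292, both on the plus strand. Capitals mark the GC box, GGGCGG or its reverse complement CCGCCC, a motif that Sp family factors can bind.
FGF18: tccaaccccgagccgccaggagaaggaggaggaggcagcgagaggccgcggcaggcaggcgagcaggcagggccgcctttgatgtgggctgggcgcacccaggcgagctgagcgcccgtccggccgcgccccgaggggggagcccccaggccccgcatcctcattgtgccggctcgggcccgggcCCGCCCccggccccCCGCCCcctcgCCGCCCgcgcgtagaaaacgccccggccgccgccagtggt
FGFR3: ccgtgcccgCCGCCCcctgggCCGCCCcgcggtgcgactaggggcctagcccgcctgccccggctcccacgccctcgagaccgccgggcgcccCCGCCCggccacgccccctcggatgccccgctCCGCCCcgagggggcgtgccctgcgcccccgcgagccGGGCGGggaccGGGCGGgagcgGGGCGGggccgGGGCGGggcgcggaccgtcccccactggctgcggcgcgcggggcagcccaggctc
The FGF18 stretch held 3 GC boxes, starting 65, 51 and 40 bases before the start site, and the FGFR3 stretch held 8. At least 1 GC box was present in 42.6% of 35116 such stretches across the genome. GC content was 78.8% for FGF18 and 86.8% for FGFR3, against a median of 58.0% over all stretches. Neither held, on either strand, the AP-1 motif TGACTCA, the TEAD motif GGAATG, the E-box motif CACGTG, the ETS motif CCGGAA or the TATA box letters TATAAA. The shares of all stretches with these motifs were 4.20%, 11.9%, 6.34%, 14.5% and 10.7%, respectively. Such start regions were not particular to these 2 genes, since FGF genes whose groups overlapped had them too. FGFR4 (79.6% GC, 7 GC boxes in the first of its stretches), FGF2 (75.2%, 3 boxes) and FGFRL1 (67.6%, 4 boxes) are examples.

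FGF1 encodes the ligand that binds all FGF receptors and is exported without a signal peptide (chromosome 5, 142592178 to 142698070, minus strand, hg38). It had 37.1, 28.1 and 27.2 CPM in the siControl libraries and 64.3, 46.6 and 51.7 CPM in the siOGT libraries. All siOGT libraries were above all siControl libraries. Means were 30.8 ± 5.45 and 54.2 ± 9.13 CPM (± SD, n = 3 per group), with a log2 FC of 0.82 (SE 0.072, 95% confidence interval 0.67 to 0.97). The 3 pairs gave log2 ratios of 0.79, 0.73 and 0.92, and leaving out any replicate gave 0.76 to 0.86. FGF1 was the FGF gene with the narrowest interval among those that differed, since it rested on 715 to 1738 counts per library.

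FGF18, a secreted ligand known for its part in skeletal and lung development (chromosome 5, 171419647 to 171457626, plus strand), was expressed at a low level. The siControl libraries held 25, 15 and 17 counts and the siOGT libraries 48, 47 and 61. This corresponds to 0.935, 0.589 and 0.609 CPM against 1.78, 1.75 and 2.28 CPM. The groups did not overlap, and every siControl library was under 1 CPM. Means were 0.711 ± 0.194 and 1.93 ± 0.297 CPM (SD, n = 3 each), with a log2 FC of 1.44 (SE 0.31, interval 0.79 to 2.09) and log2 ratios of 0.87, 1.46 and 1.78 within pairs. Without replicate 1, 2 or 3 in turn, the log2 FC was 1.73, 1.39 and 1.21. Counting error is wide at such depth. The exact Poisson 95% interval was 8.40 to 24.7 for the library with 15 counts and 46.7 to 78.4 for that with 61. For the libraries of both groups nearest to each other, the intervals overlapped. They were 16.2 to 36.9 for siControl 1 with 25 counts and 34.5 to 62.5 for siOGT 2 with 47. All these intervals cover counting error only.

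FGF2, or basic FGF, a mitogen of fibroblasts and stellate cells, was the ligand with the highest CPM (chromosome 4, 122826682 to 122898236, plus strand). It had 102.6, 78.4 and 96.7 CPM in siControl and 99.0, 70.1 and 74.1 CPM in siOGT. Each pair was lower in siOGT, with log2 ratios of -0.05, -0.16 and -0.38, but the groups overlapped. The log2 FC was -0.20 (SE 0.072, interval -0.35 to -0.05), and FGF2 was called only when genes with low counts were kept in the test. In the annotation, 804 of its 6801 exonic bases (11.8%) are shared with NUDT6 on the opposite strand. Counting was strand-specific, and NUDT6 had a log2 FC of 0.39 (edgeR adjusted p-value 0.0886).

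FGF5, known for ending the growth phase of hair (chromosome 4, 80266639 to 80336680, plus strand), had 40.4, 37.2 and 50.7 CPM in siControl and 51.2, 39.0 and 52.5 CPM in siOGT. It was higher in all 3 pairs, but by little in pairs 2 and 3, with log2 ratios of 0.34, 0.07 and 0.05. The groups overlapped, and the log2 FC of 0.15 (SE 0.075, interval -0.01 to 0.31) was not called.

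FGF7, the keratinocyte growth factor that mesenchymal cells make for epithelia (chromosome 15, 49423237 to 49488775, plus strand), was close to 1 CPM in every library. It had 36, 31 and 27 counts in siControl and 35, 28 and 40 in siOGT. The pairs went in different directions (log2 ratios -0.05, -0.21 and 0.59), and the interval of the log2 FC, -0.52 to 0.76, does not exclude a difference in either direction. GENCODE 44 holds 8 pseudogene models of FGF7 and the files none, so that reads from near-identical copies could have been assigned to FGF7 and its level is uncertain.

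Summed over the 5 ligands, CPM were 168 ± 19.7 in siControl and 186 ± 29.7 in siOGT, and these ranges overlapped. The composition of the sum differed more than the sum. FGF2 made up 55.0% ± 1.19 of it in siControl and 43.5% ± 2.48 in siOGT, while FGF1 made up 18.4% ± 2.57 and 29.1% ± 0.620 (SD, n = 3 each). FGF5 held 25.5% ± 3.30 and 25.7% ± 2.79. FGF18 stayed a minor part, with 0.421% ± 0.0847 and 1.06% ± 0.220. These shares are of CPM that were not divided by gene length. Per kilobase of exonic length, FGF1 and FGF2 had 6.18 and 13.6 CPM in siControl and 10.9 and 11.9 in siOGT. Per kilobase of the reference transcript (MANE Select), they had 8.22 and 13.9 in siControl and 14.5 and 12.2 in siOGT. Which of these ligands was higher in siOGT thus depended on the length used.

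FGFR1, the kinase receptor typical of mesenchymal cells (chromosome 8, 38400215 to 38468834, minus strand), had 276, 264 and 235 CPM in siControl and 283, 248 and 231 CPM in siOGT. The groups overlapped almost entirely. Its log2 FC was -0.02 (SE 0.065, interval -0.16 to 0.11).

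FGFR3, a kinase receptor best known as a brake on bone growth (chromosome 4, 1793293 to 1808872, plus strand), differed most among the receptors. It had 127, 103 and 107 counts in siControl and 63, 28 and 39 in siOGT, or 4.75, 4.05 and 3.83 CPM against 2.33, 1.04 and 1.45 CPM. All siOGT libraries were below all siControl libraries. Means were 4.21 ± 0.480 and 1.61 ± 0.660 CPM (± SD, n = 3 per group), with a log2 FC of -1.42 (SE 0.22, interval -1.88 to -0.96). Log2 ratios within pairs were -1.003, -1.89 and -1.35, and leaving out replicate 1, 2 or 3 gave -1.66, -1.20 and -1.43.

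FGFR4, the receptor of bile acid control, was another receptor of low level, and its groups overlapped (chromosome 5, 177086905 to 177098144, plus strand). It had 3.44, 3.46 and 3.37 CPM in siControl and 2.92, 4.16 and 3.51 CPM in siOGT, with a log2 FC of 0.04 (SE 0.18, interval -0.35 to 0.42). FGFR2 (chromosome 10, 121478332 to 121598458, minus strand) had 2, 0 and 2 counts in each group. As 0 counts allow up to 3, equal to 0.107 to 0.118 CPM depending on the library, FGFR2 was not detectable above this limit and no fold is given. It was the only FGF gene under 1 CPM over all libraries. Just above that line were FGF7 (1.23 CPM) and FGF18 (1.32 CPM), and FGFR2 lay at 0.049 CPM.

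FGFRL1 (chromosome 4, 1009936 to 1026898, plus strand) had 89.5, 90.9 and 91.2 CPM in siControl and 81.2, 93.6 and 73.7 CPM in siOGT. The siControl values were nearly equal and the siOGT values spread around and below them. The log2 FC of -0.13 (SE 0.072, interval -0.29 to 0.02) was not called, and pairs gave -0.14, 0.04 and -0.31.

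**Figure D2:**
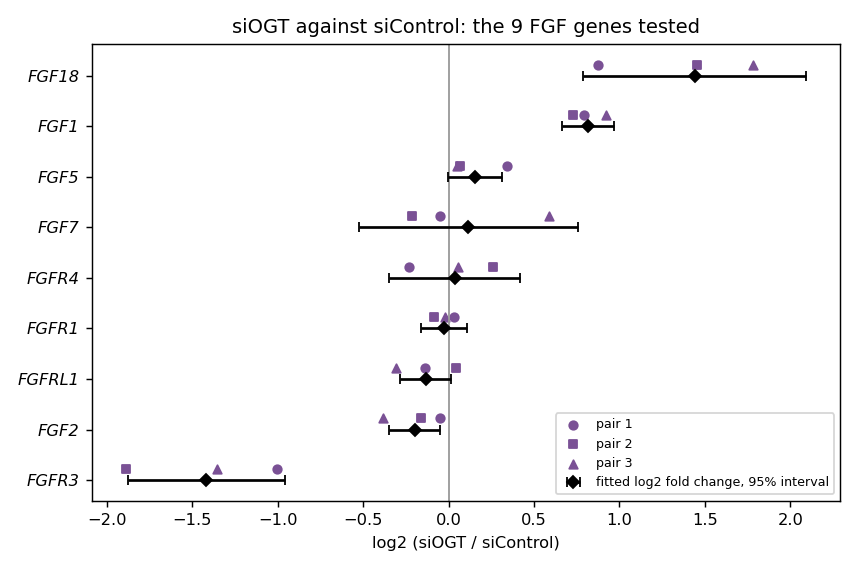
Log2 fold change of siOGT against siControl (x axis) for the 9 FGF genes tested, with edgeR estimates and 95% confidence intervals (diamonds and bars) and the log2 ratio of each pair (coloured markers). The intervals of FGF18, FGF1 and FGFR3 lie farthest from 0, from 0.79, 0.67 and -0.96 outward, and those of FGF5, FGF7, FGFR4, FGFR1 and FGFRL1 cross 0.

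Of the reads assigned to the kinase receptors FGFR1 to FGFR4, FGFR1 took 97.1% ± 0.119 in siControl and 98.0% ± 0.144 in siOGT. FGFR3 took 1.58% ± 0.0898 and 0.612% ± 0.200, and FGFR4 1.29% ± 0.0912 and 1.38% ± 0.326 (SD, n = 3 each). The sum over these receptors was 266 ± 21.5 CPM in siControl and 259 ± 26.3 CPM in siOGT. FGFR3 was thus a small part of the receptor transcripts in both groups. Divided by exonic length, its share was 5.23% in siControl and 2.07% in siOGT. By MANE Select length, FGFR3 had 0.979 CPM per kilobase in siControl and 0.374 in siOGT, beside 45.3 and 44.6 for FGFR1. Its share was thus smaller by that length than by exonic length.

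Levels of different genes were compared as CPM per kilobase (kb) of exonic length in the siControl libraries. The order was FGFRL1 (20.8), FGFR1 (13.7 to 16.0 over the 3 libraries), FGF2 (13.6), FGF5 (7.18), FGF1 (6.18), FGFR3 (0.868), FGFR4 (0.711), FGF18 (0.356), FGF7 (0.181) and FGFR2 (0.003 CPM per kb). Over the 3 libraries the ranges of the neighbours FGFR1 and FGF2 overlapped, and so did those of FGF5 and FGF1. The upper part of the order depended on the length used. FGFR1 has 17201 exonic bases over all annotated transcripts but 5697 in its MANE Select transcript, the single reference transcript of a gene, and by MANE length it came first with 45.3 CPM per kb, followed by FGFRL1 with 26.5. FGF1 and FGF5 (8.22 and 8.05) and FGFR4 and FGFR3 (1.11 and 0.979) also traded places. Under both lengths, 5 genes were well above the remaining 5.

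**Figure D3:**
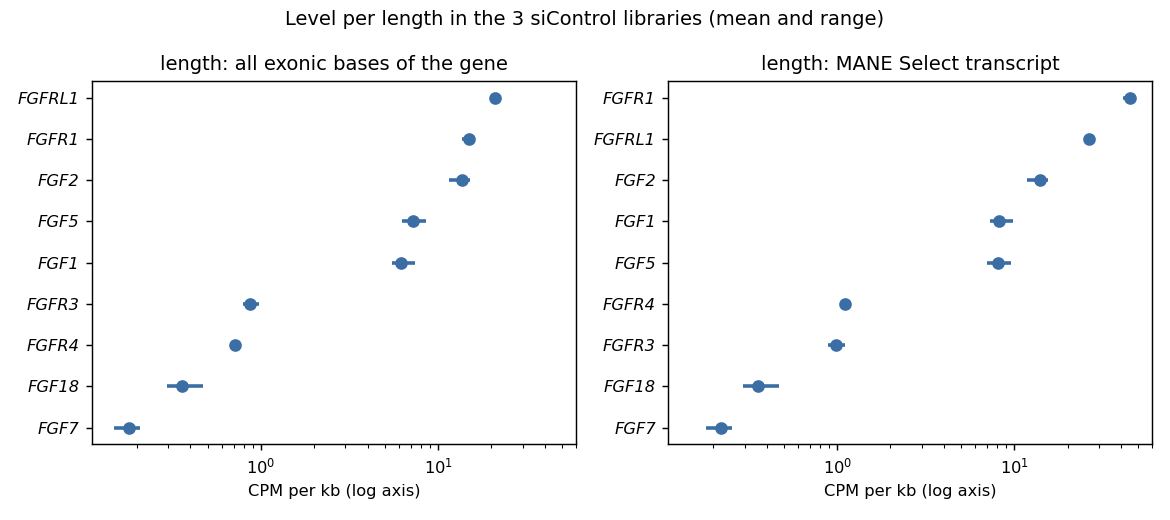
CPM per kb (x axis, log scale) of 9 FGF genes in the 3 siControl libraries, as mean (points) and range (lines), with length taken as all exonic bases (left) or the MANE Select transcript (right). FGFR2, at 0.003 CPM per kb by exonic length, is left out, and FGFR1 moves from second (left) to first place (right, 45.3 CPM per kb).

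Other genes of the pathway were then described from lists made by role, again beside the 12.7% of all genes tested that were called higher and the 12.7% called lower. The lists were made with earlier results of these data known, so the adjusted p-values of their genes are a description and not support. Among 13 further secreted ligands, 6 were in the files and 2 had enough reads to be tested. FGF17, a ligand of the same subfamily as FGF18, had 28, 39 and 28 counts in siControl and 64, 59 and 61 in siOGT, and the groups did not overlap. It rose by a log2 FC of 0.94 (SE 0.27, edgeR adjusted p-value 0.0148). Leaving out replicate 1 ended the call (0.83, adjusted p-value 0.112), as did leaving out replicate 3 (0.83, 0.0646) and the use of DESeq2 (0.95, 0.0777). FGF8, the other ligand of that subfamily, had 0 counts in each siControl library and 3, 2 and 4 in siOGT, too few to be tested. FGF9, FGF20, FGF22 and FGF23 had between 0 and 4 counts in every library, and FGF22, the only one of them tested, was not called (log2 FC 1.08, edgeR adjusted p-value 0.619). Of the intracellular FGF homologous factors, which do not act through the receptors, 3 of 4 were tested. FGF12 rose from 1.10 ± 0.263 to 2.09 ± 0.172 CPM (± SD, n = 3 per group), with a log2 FC of 0.93 (SE 0.28, edgeR adjusted p-value 0.0199). This call was lost without replicate 3 (0.68, 0.124) and with DESeq2 (0.94, 0.0993). FGF11 had a log2 FC of -0.48 (edgeR adjusted p-value 0.122) and FGF13 one of -0.49 (0.714), neither of them called.

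Among co-receptors and FGF-binding proteins, most of the called genes were lower in siOGT. Of 17 listed, 13 were tested, 1 was called higher and 5 lower, with a median log2 FC of -0.18. The 5 lower genes were L1CAM and the heparan sulfate carriers SDC4, GPC1, SDC3 and SDC1. SDC4, a syndecan that presents FGF to its receptors, had 3081, 3160 and 3267 counts in siControl and 2246, 2472 and 2334 in siOGT. The groups did not overlap, and SDC4 fell from 119 ± 4.70 to 87.3 ± 4.36 CPM (± SD, n = 3 per group), with a log2 FC of -0.44 (SE 0.063, edgeR adjusted p-value 8.01e-05). GPC1, a glypican, fell by 0.36 on the log2 scale (adjusted p-value 0.000771), with every pair lower. L1CAM, an adhesion molecule that can engage FGF receptors, had a log2 FC of -0.47 (0.00055), SDC3 one of -0.35 (0.00081) and SDC1 one of -0.32 (0.0037). FLRT2, a membrane protein that can bind FGF receptors, was the gene called higher (0.30, adjusted p-value 0.00224), a call lost without replicate 1 (0.0572). Groups overlapped for L1CAM, GPC1, SDC3 and FLRT2 but not for SDC1. The co-receptor KLB had at most 4 counts in any library.

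Most of the called enzymes that build or edit heparan sulfate were also lower. Of 13 listed, 11 were tested, 1 was called higher and 6 lower, and the median log2 FC was -0.21. Without replicate 1, the number called lower dropped to 2. SULF2, a sulfatase that removes 6-O-sulfate from heparan sulfate outside the cell, had 920, 2867 and 2573 counts in siControl and 652, 2302 and 1473 in siOGT. The replicates of a group differed more than the groups did, but each pair was lower in siOGT. SULF2 fell by 0.55 on the log2 scale (SE 0.075, edgeR adjusted p-value 5.31e-05). HPSE, which cuts heparan sulfate chains, had a log2 FC of -0.42 (adjusted p-value 0.0135), the epimerase GLCE one of -0.33 (0.00425) and the sulfotransferase NDST2 one of -0.30 (0.0118). Leaving out replicate 1 took away the calls of HPSE (adjusted p-value 0.126), GLCE (0.0551) and NDST2 (0.0589), and DESeq2 called neither HPSE (0.0876) nor NDST2 (0.0685). The 2-O-sulfotransferase HS2ST1 was the gene called higher (0.24, adjusted p-value 0.0205), but not without replicate 1 (0.17, 0.263) or with DESeq2 (0.0780). Groups overlapped for HPSE and GLCE but not for NDST2 or HS2ST1.

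**Figure D4:**
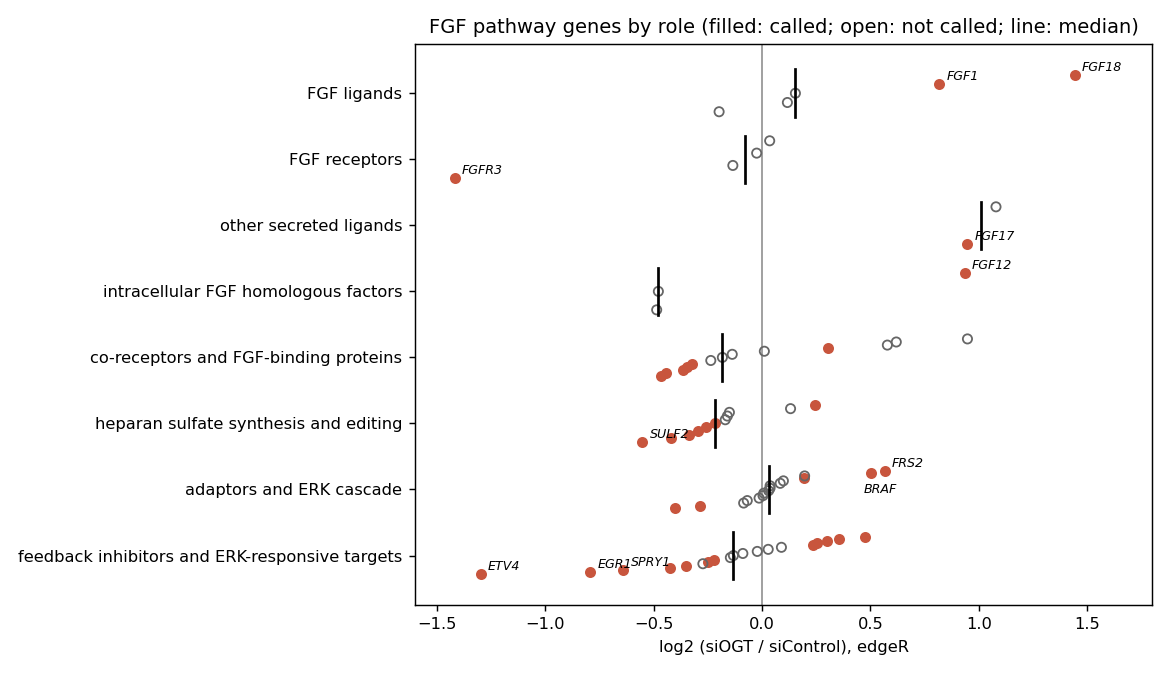
Log2 fold change of siOGT against siControl (x axis, edgeR) for every tested gene of the FGF groups, sorted by role, with filled points for called genes, open points for others and a line at the median of each group. Called genes beyond 0.5 in either direction carry their names, and in the co-receptor and heparan sulfate groups, called points lie mostly left of 0 (5 of 6 and 6 of 7).

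Of the 16 adaptors and ERK cascade genes, all were tested, 3 were called higher and 2 lower, and the median was 0.034. FRS2, the docking protein that couples FGF receptors to the cascade, had 1178, 1220 and 1449 counts in siControl and 1815, 1731 and 2197 in siOGT. The groups did not overlap, and FRS2 rose from 48.0 ± 3.92 to 71.1 ± 9.45 CPM (± SD, n = 3 per group), with a log2 FC of 0.56 (SE 0.070, edgeR adjusted p-value 2.42e-05). BRAF, a kinase upstream of MEK, rose by 0.50 on the log2 scale in overlapping groups (adjusted p-value 4.87e-05). SOS2, an exchange factor for RAS, was the other gene called higher (0.19, 0.0494), at the edge of the threshold. It was not called without replicate 1 (0.345) or replicate 3 (0.168), nor with median-ratio size factors (0.0553), other low-count filtering (0.0507) or DESeq2 (0.112). The adaptor SHC1 fell, with a log2 FC of -0.40 (adjusted p-value 0.000275), and so did PLCG1, a phospholipase that receptors activate directly (-0.28, 0.00906). Groups overlapped for SOS2 and PLCG1 but not for SHC1. The kinases MAP2K1, MAP2K2 and MAPK3 had log2 FCs from -0.07 to 0.08 and were not called.

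The group of feedback inhibitors and ERK-responsive genes went both ways. All 19 were tested, 5 were called higher and 7 lower, and the median log2 FC was -0.13. Without replicate 1, 1 was called higher and 6 lower, and without replicate 3, 3 were called in each direction. ETV4, a transcription factor that FGF signalling induces in many tissues, had the largest difference. Its counts were 621, 383 and 587 in siControl and 305, 141 and 216 in siOGT, with no overlap. It fell from 19.8 ± 4.24 to 8.19 ± 3.03 CPM (± SD, n = 3 per group), with a log2 FC of -1.30 (SE 0.108, edgeR adjusted p-value 4.75e-07) that ranged from -1.45 to -1.21 when 1 replicate was left out. The related factors ETV5 and ETV1 fell as well, with log2 FCs of -0.35 (adjusted p-value 0.000894) and -0.42 (0.00711), but ETV1 was not called without replicate 3 (-0.33, 0.0612). Groups overlapped for ETV5 but not for ETV1.

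EGR1, an immediate early gene, had 668, 1288 and 502 counts in siControl and 369, 650 and 372 in siOGT. It varied widely between replicates and the groups overlapped, yet each pair was lower in siOGT, and it fell by 0.79 on the log2 scale (SE 0.106, edgeR adjusted p-value 4.38e-05). The feedback inhibitors did not share a direction. SPRY1 had a log2 FC of -0.64 (adjusted p-value 0.0317) and lost its call without replicate 1 (0.200), 2 (0.0590) or 3 (0.0642) and with DESeq2 (0.146). SPRY2 had one of 0.25 (0.0176) and lost its call without replicate 1 (0.231) and with DESeq2 (0.0651). SPRY4 had one of -0.09 (0.458). The ERK phosphatase DUSP6 had one of -0.25 (0.0337), not called without replicate 2 (0.0775) or replicate 3 (0.205), nor with libraries scaled by their totals alone (0.0577) or DESeq2 (0.100). DUSP4, another ERK phosphatase, had one of -0.22 (0.0430), not called without replicate 3 (-0.10, 0.282), with other low-count filtering (0.0525), library totals (0.0726) or DESeq2 (0.0812). FOSL1, an AP-1 subunit, rose from 644 ± 58.1 to 909 ± 203 CPM (± SD, n = 3 per group), with a log2 FC of 0.48 (SE 0.078, edgeR adjusted p-value 0.000285). Its groups overlapped, as did those of SPRY1, SPRY2 and DUSP6, while those of DUSP4 did not. The other genes called higher were SPRED3 (0.36), PHLDA1 (0.30) and IER3 (0.23), all in overlapping groups. Without replicate 1 none of these 3 was called by edgeR (adjusted p-values 0.147, 0.389 and 0.283), without replicate 3 PHLDA1 (0.0770) and IER3 (0.131) were not, and DESeq2 called none of the 3 (0.0813, 0.283 and 0.0740).

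**Figure D5:**
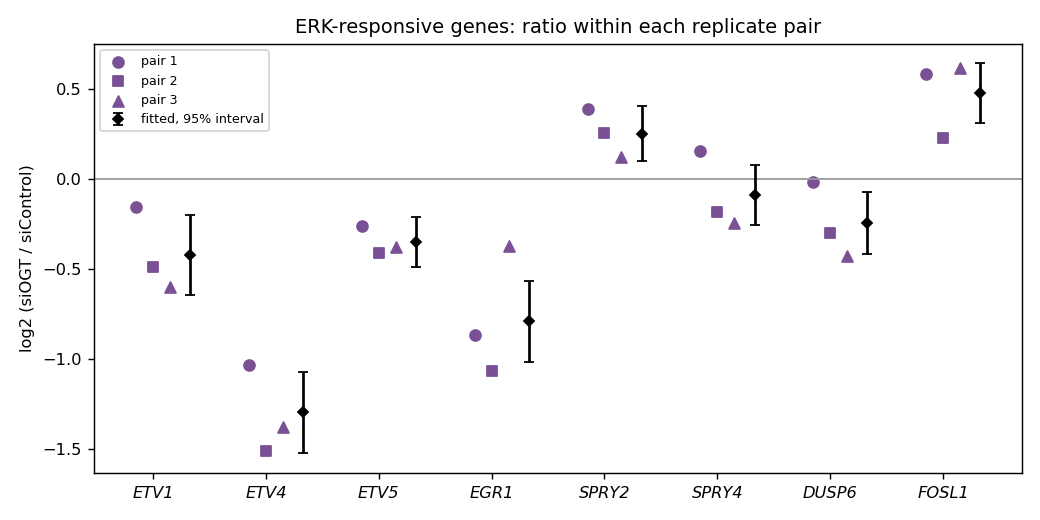
Log2 ratio of siOGT to siControl (y axis) in each of the 3 replicate pairs (coloured markers), with the edgeR estimate and its 95% confidence interval (diamonds and bars), for 8 ERK-responsive genes. ETV1, ETV4, ETV5 and EGR1 are below 0 in every pair, SPRY2 and FOSL1 are above 0 in every pair, and SPRY4 has 1 pair above and 2 below.

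All of these pathway calls rest on the pairing of libraries by replicate number. Without the replicate block, which compares siOGT with siControl within a replicate, edgeR called 0 of the 64 tested genes of the pathway lists, 19 of which had an unadjusted p under 0.05, and 0.875% of all genes. DESeq2 with the block called 19 of the 64. Of the 9 FGF genes tested, edgeR without the block called FGF1 alone, with log2 FCs of 1.44 for FGF18, -1.38 for FGFR3 and -1.27 for ETV4. With the block, the edgeR p-values measure how the ratio of siOGT to siControl varied between the 3 pairs of 1 line. They do not measure the spread between replicates within a group. The variation was estimated largely from all genes together, with 2 residual degrees of freedom per gene and 15.5 shared across genes.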

How the data were processed

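Polyadenylated RNA of 6 LX-2 libraries had been sequenced. Per the study's methods and processing notes, the authors aligned reads to hg38 with Bowtie2 2.3.5.1 and counted them per gene, by strand, with RSEM 1.3.1. The deposited values are expected counts, not normalized, in which reads matching several genes are divided between them. The study's methods name a GENCODE annotation of GRCh38, whose gene models may differ from the GENCODE 44 models used here. The authors' own DESeq2 comparison, with fold changes and p-values, was not used.

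Expected counts were rounded, genes with a total below 10 were removed (2054 of 16907), and libraries were scaled by TMM (0.979 to 1.02). The edgeR 4.0.16 quasi-likelihood F test (two-sided, R 4.3.3) was run over 14853 genes blocked by replicate number, with Benjamini-Hochberg adjustment at 0.05. The study's methods pair the replicates. Deviations from group means correlated by 0.69, 0.53 and 0.33 between same-numbered libraries, across 12373 genes, which are not independent. CPM use TMM-scaled totals, SE and intervals derive from the F statistic, and log2 ratios of pairs use a prior count of 2. The pipeline was run on simulated data. Both groups shared their replicate effects there, so that run could not check the pairing.

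The FGF genes and the lists were chosen with earlier results of these data known. Besides these genes, the text names OGT, up to 4 called genes of each list with the largest differences and a mean of at least 1 CPM, and 8 usual readouts or FGF partners (SPRY2, SPRY4, DUSP6, ETV4, ETV5, GPC1, SDC4 and FRS2). It also names the neighbours of the called FGF genes and the genes closest in pattern. Others were named after their values were seen, mostly to complete a count. Coordinates and lengths are from GENCODE 44 on hg38, which held all 10 genes and 15906 of the 16907 symbols. RefSeq start regions were found for 9 of the 10. Alternatives were DESeq2 1.42.0, no block, other scaling and filters, other lengths and leaving out each replicate. The MANE Select length was added after the data were seen.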

Additional observations from a re-analysis of the deposited data

How the results depend on the processing

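With no replicate block, 130 genes were called by edgeR (71 higher, 59 lower), of the FGF genes 1, with FGF18 at 1.44 and FGFR3 at -1.38 no longer called, and 0 in either direction in every pathway list (19 of 64 genes at an unadjusted p under 0.05). The cause of lost calls was not tested. DESeq2 with the block called 2415 genes (1117 higher), 0 further secreted ligands, 0 homologous factors and 0 heparan sulfate enzymes as higher (1 each at an unadjusted p under 0.05), and 1 feedback or ERK-responsive gene as higher and 4 as lower. With low-count genes kept, FGF2 (-0.20) was called.

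Leaving out 1 replicate gave 1803 to 3439 called genes, 858 to 1652 higher and 945 to 1787 lower, the lowest without replicate 1. The log2 fold change then ranged from -0.14 to 0.27 for FGF7, -0.056 to 0.0040 for FGFR1 and -0.088 to 0.16 for FGFR4, all with a change of sign. Counts called higher ranged from 0 to 1 for secreted ligands, homologous factors, co-receptors and heparan sulfate enzymes alike and from 1 to 5 for feedback and ERK-responsive genes. Counts called lower ranged from 2 to 6 for heparan sulfate enzymes and from 3 to 6 for feedback and ERK-responsive genes. Of genes named for other reasons, MTCP1 ranged from -0.42 to 0.025 and LETM1 from -0.080 to 0.040. Of the 32 called genes of the pathway lists, 13 lost their call with DESeq2, 13 without replicate 1, 2 without replicate 2, 9 without replicate 3, and 0 to 2 with other scaling or filters.

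By coding length 2 of 10 FGF genes, and by MANE Select length 4, kept their place in the order of levels. Per exonic length, FGFR1, FGFR3 and FGFR4 made up 90.4%, 5.23% and 4.31% of FGFR1 to FGFR4 in siControl and 93.2%, 2.07% and 4.69% in siOGT. Depth limits FGF7, FGF18 and FGFR2 most.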

Other observations

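For the FGF genes that differed, the nearest tested gene without overlap was looked at on each side. Genes with too few reads to be tested may lie closer. FGF1 lies 265722 bases from SPRY4 (log2 FC -0.09, edgeR adjusted p-value 0.458) and 72306 bases from ARHGAP26 (-0.06, 0.603). FGF18 lies 7836 bases from NPM1 (-0.06, 0.570) and 403922 bases from FBXW11 (0.06, 0.523). Of these 4 neighbours none was called by edgeR with the replicate block, and their levels stayed within 0.1 on the log2 scale. FGFR3 lies between TACC3, 48121 bases away, which was called lower (-0.44, edgeR adjusted p-value 1.73e-04, from 186 to 138 CPM), and LETM1, 2606 bases away (-0.03, 0.806). TACC3 encodes a protein of the mitotic spindle.

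Genes closest in pattern to FGF18 over the 6 libraries, among the 12373 genes averaging 1 CPM or more, were OXA1L (Pearson r 0.996), ZC3H6 (0.994) and NFU1 (0.994). Those closest to FGFR1 were CPNE8 (0.989), DONSON (0.986) and MTCP1 (0.985). With 6 points that share their libraries and groups, and FGF18 at 15 to 61 counts, these values describe the libraries only. ZC3H6 rose by a log2 FC of 1.005 (edgeR adjusted p-value 1.73e-05). NFU1 had a log2 FC of 0.26 (0.0184), and OXA1L, the closest to FGF18, one of 0.14 that was not called (0.119).

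FGF1 has 4 listed RefSeq start sites, more than FGF18 or FGFR3 with 1 each. The 250 bases before the start at the lowest coordinate (chromosome 5, 142644240 to 142644489, minus strand) held GGAATG at 236 and 189 bases and TGACTCA at 41 bases before it, and had a GC content of 47.2%. The stretches before the other 3 starts held neither motif. The files count reads per gene and not per start site. GGAATG was not particular to FGF1 among the FGF genes. FGFR2, with 0 to 2 counts per library, held it 84 bases before a start site and, in another stretch, 218 bases before. A stretch with TGACTCA occurred in 4.20% of all stretches, and one with GGAATG in 11.9%. These shares are per stretch, whereas 4 stretches of FGF1 were searched. These matches are a description and were found after the values were seen.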
